A study of Mus musculus with 6 samples.

Results

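The genes described here are 10 enzymes of methionine salvage and polyamine synthesis: Mat2a, Mat2b, Amd1, Srm, Sms, Mtap, Mri1, Apip, Enoph1 and Adi1. All 10 symbols were found among the 24411 genes of the count tables. The set was chosen by the measured KO against WT difference of Adi1 in these same libraries, around which its pathway was drawn up, so their differences between the groups are given as a description, with no p-value.

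The libraries are bulk RNA-seq of mouse cerebellum, all taken on postnatal day 18. The KO group is made up of 3 replicates in which a distant enhancer of Atoh7 is knocked out. Atoh7 encodes a bHLH transcription factor needed for retinal ganglion cells. The WT group is made up of 3 replicates from wild-type mice. The labels describe the replicates as independent and give no strain, litter or breeding scheme, and although the design names cerebellum, retina is entered as the tissue of all samples. The 6 cerebellar marker genes summed to 1368 to 1715 CPM (counts scaled to a library of 1000000 reads) in KO and 1360 to 1756 CPM in WT. The 6 retinal marker genes summed to 2.62 to 2.97 CPM in KO and 2.51 to 3.87 CPM in WT, with Crx at 0 reads in every library.

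Cells join methionine to ATP to make S-adenosylmethionine (SAM), the donor of most methyl groups, through an enzyme whose catalytic subunit outside the liver is encoded by Mat2a and whose regulatory subunit is encoded by Mat2b. Amd1 removes the carboxyl group of SAM, and the spermidine synthase Srm and the spermine synthase Sms move the remaining aminopropyl group onto putrescine and spermidine. Each transfer leaves methylthioadenosine, which Mtap, Mri1, Apip, Enoph1 and Adi1 turn back, in this order, into the keto acid from which a transaminase regenerates methionine. In neurons, spermine is known as a pore blocker of inward rectifier potassium channels and of some glutamate receptors.

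The start of the coding sequence of Adi1 is shown because it is the gene around which the set was built. It is read from the GENCODE transcript on GRCm38 (chromosome 12, plus strand), and its first 150 bases are given with the start codon in capitals.
Adi1: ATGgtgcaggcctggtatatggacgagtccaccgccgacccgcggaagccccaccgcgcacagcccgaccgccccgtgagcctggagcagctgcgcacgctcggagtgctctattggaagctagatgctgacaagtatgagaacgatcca
The next pair is shown because Amd1 and its copy Amd2 are both listed at 0 reads. They lie on the minus strand of chromosome 10 and their coding sequences of 1005 bases differ at 1 position, the substitution G796C from Amd1 to Amd2, counted from the A of the start codon. The 61 bases around it are given with that base in capitals.
Amd1: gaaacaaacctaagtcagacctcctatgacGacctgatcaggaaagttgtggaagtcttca
Amd2: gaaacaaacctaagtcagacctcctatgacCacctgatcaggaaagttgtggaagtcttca
The last set comes from the part of the Mat2a transcript after the stop codon (chromosome 6, minus strand). Its hairpins are known to bind the methyltransferase Mettl16, which couples the splicing of Mat2a to the supply of SAM. The motif TACAGAGAA, searched on the transcript strand, occurs 5 times in the 1494 bases after the stop codon, and each copy is given in capitals within 25 bases. Allowing A or G at base 7 of the motif gives 6 copies, and the added one is not shown.
Mat2a site 1: gcgtaggtTACAGAGAAgccttcaa
Mat2a site 2: ttgtgataTACAGAGAAgtcacagg
Mat2a site 3: ggtgtagcTACAGAGAAaccagctt
Mat2a site 4: ggcgtaagTACAGAGAAgccatcac
Mat2a site 5: tggtgtggTACAGAGAAgccagctt
Of 11316 protein-coding transcripts with at least as many bases after the stop codon, 2.16% held 1 copy or more in a window of that length. A match describes letters only.

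Reads assigned to genes numbered 32556977 to 34438262 in KO and 16340132 to 28170761 in WT. WT replicate 3 stood apart, with 63.2% of its gene reads from the ribosomal RNA precursor Rn45s, against 1.28% to 3.04% in the other libraries, so that 1 read was worth 0.155 CPM there and 0.0241 to 0.0309 CPM elsewhere. Reads outside genes, introns included, made up 17.1% to 17.6% of KO and 32.1% to 38.5% of WT libraries. WT replicate 1 had 31134 reads of Xist, which coats the silenced X, against at most 10 in any other library. Of 6 vessel markers, 6 were lower in KO (summed level 140.0 to 144.5 CPM in KO, 205 to 224 CPM in WT), and of 6 meningeal fibroblast markers 5 were lower (152 to 158 CPM in KO, 209 to 284 CPM in WT), or 3 without WT replicate 2 or any 1 of the KO replicates. Of all 15519 tested genes, 10.2% were called lower in KO by the fit described below. The 6 oligodendrocyte markers summed to 28020 to 30020 CPM in KO and 21950 to 25370 CPM in WT. Among the 6 cerebellar markers, whose sums overlapped, Calb1 was called higher in KO (log2 0.36) and Gabra6 lower (log2 -0.66), while 4 did not pass. Over all tested genes, 6.43% were called higher. The part of these shifts in the differences below was not tested.

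Adi1 was 2.92 times as abundant in KO cerebellum as in WT, and Mat2a stood at 0.732 of its WT level. The other 7 enzymes with enough reads to test differed by at most 0.25 on the log2 scale and did not pass the threshold. In the fit over all genes by edgeR's quasi-likelihood test, at a threshold of 0.05, 16.7% of 15519 tested genes were called, 6.43% higher and 10.2% lower. Among the 9 tested enzymes these calls were Adi1, higher, and Mat2a, lower. Since the difference of Adi1 chose the set, its call was given by that choice and nothing is read from the count. The 3 KO and 3 WT libraries did not overlap for 4 of the 9, beside 39.4% of all tested genes. KO lay above WT for 3 of them (18.9% of all tested genes) and below it for 1 (20.5%). The median log2 fold change, KO minus WT, was 0.02 over the 9 enzymes and -0.01 over all tested genes. In bulk tissue, a gene's level cannot tell fewer cells of a type from less RNA per cell.

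**Figure D1:**
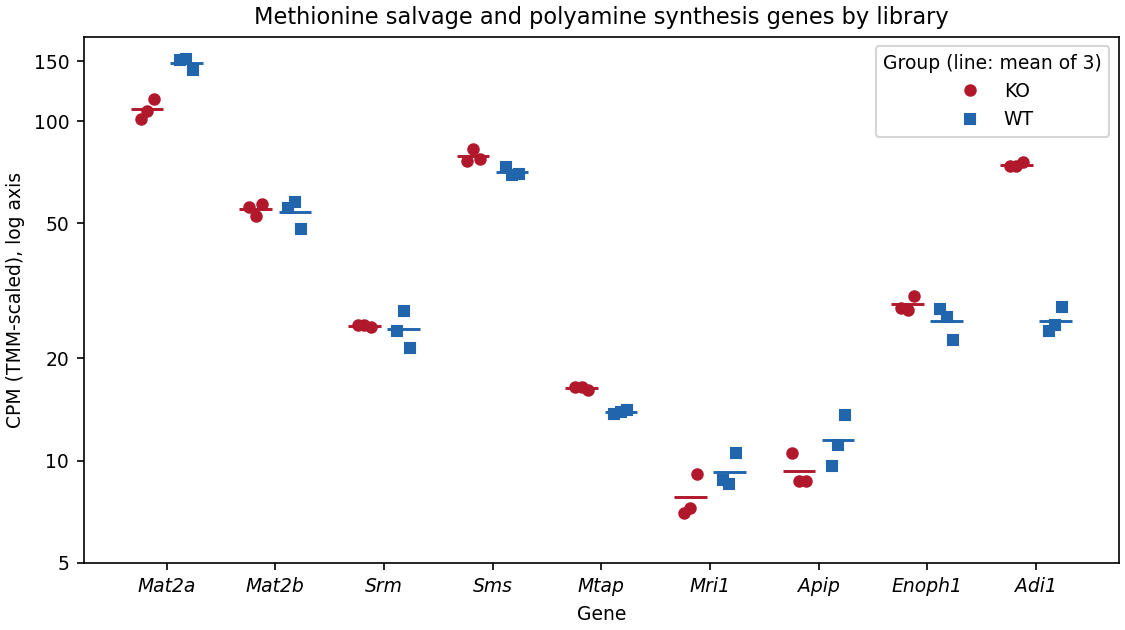
Level of the 9 tested enzymes in each library, in CPM on a log axis. Circles are the 3 KO libraries, squares the 3 WT libraries, and lines the mean of each group. Adi1 lies at 73.6 to 75.8 CPM in KO, far above its 24.1 to 28.4 CPM in WT, and Mat2a lies lower in KO.

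Adi1, the iron-dependent acireductone dioxygenase that carries out the last oxidation of the salvage pathway, lies on chromosome 12 (28675231 to 28682175, GRCm38). It had 2840, 2914 and 3144 reads in KO replicates 1 to 3, against 831, 811 and 183 reads in WT replicates 1 to 3. After scaling, the KO libraries held 73.7, 73.6 and 75.8 CPM and the WT libraries 24.1, 25.1 and 28.4 CPM. The lowest KO library was far above the highest WT library. The fold of KO over WT was 2.92 (log2 1.54, SE 0.07), and leaving out any 1 library gave log2 values between 1.50 and 1.60. The 3 KO libraries were close together, with an SD of 1.27 CPM around 74.3, and the WT libraries had an SD of 2.22 CPM around 25.9 (n = 3 each).

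Among the enzymes before Adi1 in the salvage pathway, none showed a difference of that size. Mtap, the phosphorylase that opens the pathway by splitting methylthioadenosine, held 16.5, 16.5 and 16.1 CPM in KO replicates 1 to 3, against 13.7, 13.9 and 14.1 CPM in WT replicates 1 to 3. Its groups did not overlap, with a log2 difference of 0.24 (SE 0.08), but it did not pass the threshold over all genes, and it did without WT replicate 3 (log2 0.25). Enoph1, the enolase-phosphatase just before Adi1, averaged 28.9 ± 1.51 CPM in KO and 25.7 ± 2.79 CPM in WT (SD, n = 3 each; log2 0.14, SE 0.09), with overlapping groups. Mri1, the isomerase after Mtap, averaged 7.80 ± 1.15 CPM in KO and 9.28 ± 1.09 CPM in WT (log2 -0.21, SE 0.13). Apip, the dehydratase after Mri1, averaged 9.33 ± 1.06 CPM in KO and 11.5 ± 2.01 CPM in WT (log2 -0.25, SE 0.13). For Mri1 and Apip the groups overlapped, and both are low enough that WT replicate 3 held only 68 and 88 reads.

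Within single libraries Adi1 therefore stood in another proportion to its pathway neighbours. Per kilobase of annotated exon, the ratio of Adi1 to Enoph1 was 3.47, 3.52 and 3.30 in KO replicates 1 to 3, against 1.14, 1.26 and 1.67 in WT replicates 1 to 3. Its ratio to Mtap was 7.76 ± 0.240 in KO and 3.18 ± 0.230 in WT, and its ratio to Apip was 4.26 ± 0.490 in KO and 1.21 ± 0.111 in WT (SD, n = 3 each). These ratios need no scaling between libraries, and in all of them the lowest KO library was above the highest WT library.

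Mat2a, the catalytic subunit gene of SAM synthesis (chromosome 6, 72432799 to 72439558), was the other enzyme that passed the threshold. It had 3923, 4247 and 4827 reads in KO replicates 1 to 3, against 5201, 4908 and 910 reads in WT replicates 1 to 3. This came to 102, 107 and 116 CPM in KO and to 151, 152 and 141 CPM in WT, with no overlap between the groups. The fold of KO over WT was 0.732 (log2 -0.45, SE 0.07), between -0.50 and -0.40 when any 1 library was left out. Mat2b, the regulatory subunit gene (chromosome 11), averaged 55.2 ± 2.31 CPM in KO and 53.9 ± 5.17 CPM in WT (SD, n = 3 each; log2 0.02, SE 0.08), less than the spread between replicates. Per kilobase of exon, the ratio of Mat2a to Mat2b was accordingly 2.03, 2.27 and 2.28 in KO and 3.03, 2.92 and 3.27 in WT.

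The splicing of Mat2a is known to be regulated, with transcripts that keep an intron held in the nucleus, and a read that lies only in an intron is counted outside genes in these tables. Reads outside genes made up a smaller share of the KO libraries than of the WT libraries, as given above, and their part in the Mat2a difference was not tested. Mettl16, the methyltransferase introduced with these sequences, held 17.0 ± 1.22 CPM in KO and 19.8 ± 1.62 CPM in WT (SD, n = 3 each). Its groups did not overlap, and its log2 fold change of -0.20 (SE 0.09) did not pass in edgeR's quasi-likelihood test (adjusted p = 0.153). Particl, a non-coding gene that overlaps Mat2a on the other strand, averaged 11.7 ± 2.09 CPM in KO and 10.9 ± 0.200 CPM in WT (SD, n = 3 each; adjusted p = 0.607 in the same test).

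The polyamine synthases differed little. Srm, the spermidine synthase (chromosome 4), held 25.1, 25.1 and 24.7 CPM in KO replicates 1 to 3, against 24.1, 27.5 and 21.4 CPM in WT replicates 1 to 3. All KO values lay inside the WT range, and the log2 difference was 0.01 (SE 0.09). Sms, the spermine synthase, is on the X chromosome and held 76.0, 82.9 and 77.1 CPM in KO, against 73.4, 69.2 and 70.0 CPM in WT (log2 0.15, SE 0.06). The groups did not overlap, but Sms did not pass the threshold. WT replicate 1, the library with Xist reads, was the highest of the WT libraries for Sms.

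Amd1, the SAM decarboxylase that feeds both synthases, could not be compared. The table lists 0 reads for Amd1 and 0 for its copy Amd2 in all 6 libraries and on both strands, so Amd1 did not enter the test. A count of 0 allows up to 0.0778 CPM of uniquely placed reads in a KO library and up to 0.465 CPM in a WT library, counting error only. The Amd1 and Amd2 transcripts align over 3202 bases at 99.6% identity, and 87.6% of all 50-base windows of the Amd1 transcript occur letter for letter in transcripts of other genes. The other 12.4% of windows occur in no other gene's transcript. Reads that map to several places are set aside in these tables, and their part in the zero was not tested. For Sms, 28.7% of such windows were shared with other genes, among them a processed copy, Sms-ps, that is identical over 1101 bases. The share was 11.4% for Mat2a, 2.40% for Srm, 0.374% for Adi1 and 0 for Mtap, Mri1, Apip, Enoph1 and Mat2b. The Mat2a share includes windows held by Particl, which overlaps Mat2a on the other strand. Such windows can lie at the same place in the genome as Mat2a itself. The 11.4% may therefore overstate the sequence that Mat2a shares with other places, and the part held by Particl was not separated. The length of the reads is not given in the sources used here, so 50 bases is a choice, and the level of Sms is uncertain.

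Levels were compared between genes per kilobase of exon, from GENCODE gene models that may differ from those used for counting. The length is that of all annotated exons of a gene together, which can far exceed its longest coding transcript. It was 5001 against 2053 bases for Mat2b and 6010 against 3717 for Sms, but 1886 against 1652 for Adi1 and 1000 against 919 for Apip. The order below therefore holds for this choice of length, and another length can change it. In KO, Adi1 stood first at 39.4 ± 0.671 CPM per kb, followed by Mat2a at 24.2 ± 1.65, Srm at 15.6 ± 0.131 and Sms at 13.1 ± 0.616 (SD, n = 3 each). Enoph1, Mat2b and Apip came next, between 11.5 and 9.33 CPM per kb on average, and each overlapped its neighbour in that order. Mtap at 5.08 and Mri1 at 2.38 CPM per kb were lowest. In WT, Mat2a stood first at 33.0 ± 1.34 CPM per kb, and Srm at 15.2 ± 1.93 and Adi1 at 13.7 ± 1.18 came next with overlapping ranges. Sms, Apip, Mat2b and Enoph1 followed between 11.8 and 10.3 CPM per kb, each overlapping its neighbour, and Mtap at 4.31 and Mri1 at 2.84 were again lowest. The ratio of Adi1 to Mat2a was 1.72, 1.63 and 1.55 in KO replicates 1 to 3, against 0.380, 0.393 and 0.478 in WT replicates 1 to 3.

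**Figure D2:**
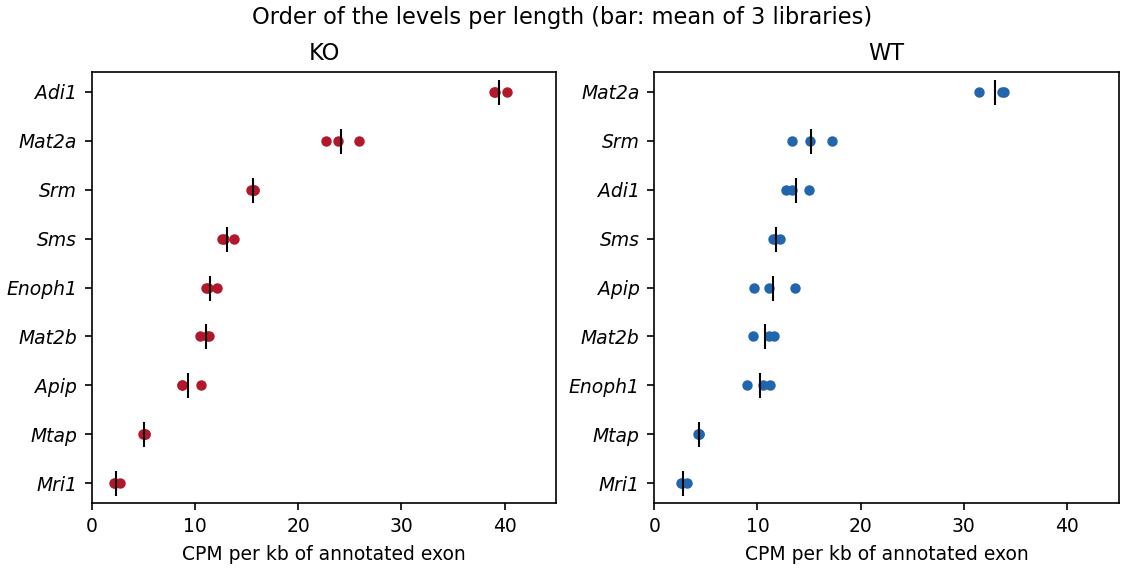
Level of the 9 tested enzymes in CPM per kilobase of annotated exon, KO at the left and WT at the right, each panel ordered by its own mean. Points are libraries and bars are means of 3. Adi1 is first in KO at 39.4 CPM per kb and behind Mat2a and Srm in WT at 13.7 CPM per kb, while Mtap and Mri1 are lowest in both.

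The spread between replicates differed between the groups. The median SD of log2 CPM over the 9 enzymes was 0.07 in KO and 0.14 in WT, beside 0.09 and 0.15 over all tested genes. For 7 of the 9, the WT library farthest from the WT mean was replicate 3, the shallowest one.

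Adi1 was also set beside the genes that lie near it. Within 1 Mb, 5 other genes were tested. Trappc12, a gene of the vesicle tethering complex TRAPP that lies 8.45 kb away on the opposite strand, rose to 52.6 ± 0.950 CPM in KO, against 44.7 ± 2.55 CPM in WT (SD, n = 3 each; log2 0.22, SE 0.06; adjusted p = 0.0399 in edgeR's quasi-likelihood test). That call was lost without WT replicate 1, WT replicate 2 or any 1 of the KO replicates, at adjusted p of 0.0730 to 0.128 and log2 values of 0.22 to 0.26. Rnaseh1, which encodes a ribonuclease for RNA in hybrids with DNA, lies 15.6 kb away on the other side at -0.29 (SE 0.12; adjusted p = 0.126). The ribosomal protein gene Rps7 (-0.13), the collectin gene Colec11 (-0.62) and the neuronal transcription factor gene Myt1l (-0.05) did not pass either.

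**Figure D3:**
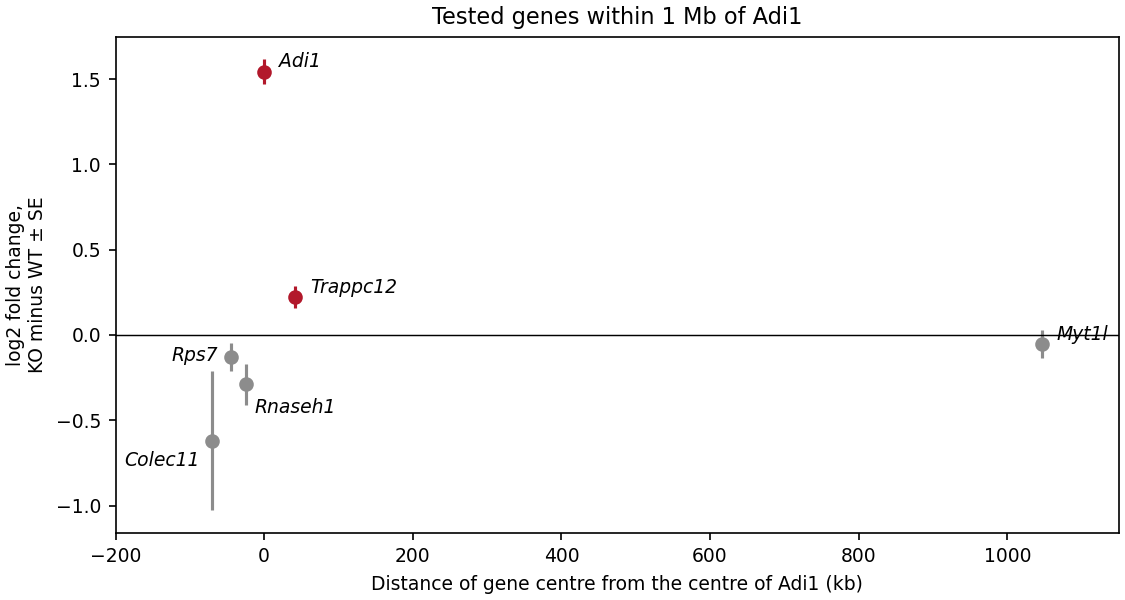
Log2 fold change, KO minus WT, with its SE for Adi1 and the 5 other tested genes within 1 Mb, against the distance between gene centres in kb. Red points passed the threshold and were higher in KO, grey points did not pass. Adi1 stands at 1.54, and its neighbours lie between -0.62 and 0.22.

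By the likeness of their 6 values to those of Adi1, Plvap and Kirrel2 ranked 2 and 3 among genes outside the set. Likeness was the root mean squared difference of log2 CPM, each gene centred on its own mean over the 6 libraries, and came to 0.237 for Plvap and 0.244 for Kirrel2. Plvap, a protein of endothelial diaphragms, held 14.1, 16.2 and 12.7 CPM in KO replicates 1 to 3, against 6.07, 6.78 and 6.66 CPM in WT replicates 1 to 3. Its direction was opposite to that of the 6 vessel markers given above, which were all lower in KO. Kirrel2, a cell surface protein related to nephrin, held 8.69, 8.46 and 5.86 CPM in KO, against 1.80, 2.41 and 2.64 CPM in WT. With Adi1 chosen for this difference, the likeness reflects the gap between the groups.

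The genes around the set were taken from 5 lists, 54 symbols in all, of which 44 were tested. Among the 44, 5 rose in KO and 1 fell, while 38 missed the threshold, beside 16.7% of all tested genes called. Their median log2 fold change was 0.10, against -0.01 over all tested genes. The count of 6 moved with single libraries, as did the 2585 calls over all tested genes. Leaving out KO replicates 1, 2 and 3 in turn gave 1, 2 and 0, beside 1289, 1130 and 1041 over all genes. Leaving out WT replicates 1, 2 and 3 in turn gave 8, 1 and 13, beside 2360, 1331 and 3719.

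In the supply of polyamines and its control, 1 of 7 tested genes fell and 1 rose, beside 10.2% and 6.43% of all tested genes. Odc1, ornithine decarboxylase, which makes putrescine and sets the pace of the pathway, fell to 35.9, 37.2 and 37.8 CPM in KO replicates 1 to 3, against 42.7, 42.0 and 50.2 CPM in WT replicates 1 to 3 (log2 -0.27 with SE 0.08, and adjusted p = 0.0424 by the quasi-likelihood test of edgeR). Oaz2, an antizyme that targets ornithine decarboxylase for breakdown, rose to 93.9 ± 1.96 CPM in KO, against 79.3 ± 1.61 CPM in WT (SD, n = 3 each; log2 0.24, SE 0.06; adjusted p = 0.0201). The antizyme inhibitor genes Azin1 (0.08) and Azin2 (0.35) did not pass, though Azin2 passed under 6 of the 13 alternatives, those without WT replicate 1 or WT replicate 3 among them. The Odc1 call was lost without WT replicate 1, WT replicate 2 or any 1 of the KO replicates (adjusted p 0.0519 to 0.136, log2 -0.31 to -0.24). That of Oaz2 was lost without WT replicate 2 or any 1 of the KO replicates (adjusted p 0.0517 to 0.0853). Oaz1, the main antizyme gene, was listed with 1 read over all libraries and was not tested, and 52.2% of its 50-base windows occur in its processed copy Oaz1-ps while 47.9% do not occur in another gene's transcript. The part of shared sequence in that count was not tested.

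Among the genes of polyamine breakdown, transport and use, 3 of 13 rose and none fell, beside 6.43% and 10.2% of all tested genes. Smox, which oxidizes spermine back to spermidine, rose to 71.6 ± 4.96 CPM in KO, against 58.6 ± 2.36 CPM in WT (SD, n = 3 each; log2 0.28, SE 0.07; adjusted p = 0.0230 in edgeR's quasi-likelihood test). The others belong to hypusination, in which part of spermidine is placed on the translation factor eIF5A. Dhps, the enzyme of its first step, rose to 17.7 ± 1.49 CPM in KO, against 13.2 ± 1.51 CPM in WT (log2 0.39, SE 0.10; adjusted p = 0.0287). Eif5a, the target, rose to 225 ± 5.21 CPM in KO, against 193 ± 6.19 CPM in WT (log2 0.22, SE 0.06; adjusted p = 0.0266), while Dohh, the enzyme of the second step, was at 0.17 and did not pass. Sat1, the acetyltransferase that starts polyamine export and breakdown, averaged 38.2 ± 1.72 CPM in KO and 38.0 ± 1.48 CPM in WT. The calls of Smox, Dhps and Eif5a were each lost without WT replicate 2 or KO replicate 3, as were Smox without KO replicate 1, Dhps without KO replicate 2 and Eif5a when any 1 of WT replicate 1, KO replicate 1 and KO replicate 2 was dropped (adjusted p 0.0582 to 0.116).

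No gene of the methionine cycle and transsulfuration passed in edgeR over all 6 libraries, of 14 tested (1 did without the filter on low counts and 1 with unstranded counts), with 4 at an unadjusted p under 0.05 (28.6%, beside 32.5% of all tested genes), 1 called by DESeq2 and 3 by limma-voom with quality weights. Ahcy, which clears the S-adenosylhomocysteine left after methylation, held 14.5, 15.1 and 15.6 CPM in KO replicates 1 to 3, against 12.8, 13.0 and 12.9 CPM in WT replicates 1 to 3 (log2 0.23, adjusted p = 0.0821). Mtr, the methionine synthase, was at -0.28 (adjusted p = 0.0933) and passed without WT replicate 3 at -0.32. Of the transaminases that can close the salvage pathway, none of 4 tested passed in edgeR over all 6 libraries with TMM scaling, while Got2 passed with RLE scaling, without the filter and with unstranded counts. There were 3 at an unadjusted p under 0.05, 2 called by DESeq2 and 3 by limma-voom. Over all 15519 tested genes, 32.5% had an unadjusted p under 0.05, while DESeq2 called 2603 and limma-voom 4092. The aspartate transaminase genes Got1 (0.26) and Got2 (0.21) passed when either WT replicate 1 or WT replicate 3 was left out. Got2 passed under 7 of the 13 alternatives in all. Of 6 tested methyltransferases for small molecules and lipid-modified proteins, 1 rose, beside 6.43% of all tested genes. Icmt, which methylates prenylated proteins, rose to 254 ± 27.0 CPM in KO, against 186 ± 25.6 CPM in WT (SD, n = 3 each; log2 0.44, SE 0.11; adjusted p = 0.0214 in edgeR's quasi-likelihood test), a call lost without KO replicate 1 or KO replicate 3 (adjusted p 0.0688 to 0.0767).

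**Figure D4:**
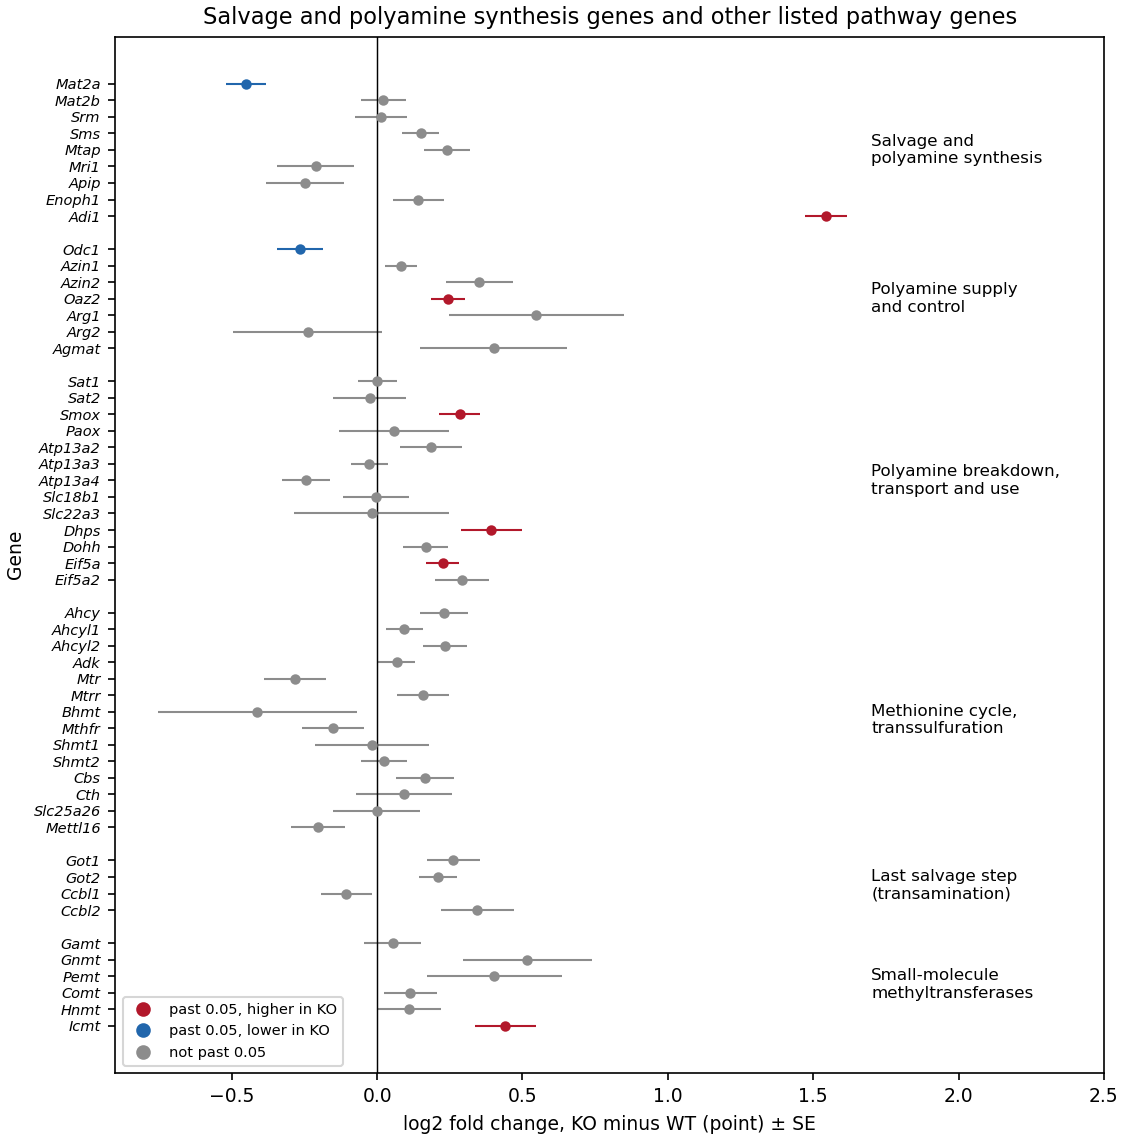
Log2 fold change, KO minus WT, with its SE for the 9 tested enzymes at the top and for the 44 tested genes of the 5 pathway lists below. Red points passed the threshold over all genes and were higher in KO, blue points passed and were lower, grey points did not pass. Adi1 at 1.54 stands apart from all others, and Mat2a at -0.45 and Odc1 at -0.27 are the blue points.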

How the data were processed

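The authors deposited 1 table of raw, unnormalized counts by gene symbol for each library. Trimmomatic, STAR and mm10 are named, per the submitters' processing notes. The sources used here do not give versions, gene annotation or the strand of the kit. The file of KO replicate 3 has another prefix than the other KO files, and its title was followed. Each table has 24411 genes and 4 summary lines, which were left out of library sizes. The counts of 1 strand were used, which held 55.4 times the gene reads of the other strand. Genes with low counts were removed with filterByExpr, which left 15519 genes, among them 9 of the 10 enzymes. After TMM scaling, the KO against WT contrast was fitted with the quasi-likelihood test of edgeR 4.0.16 in R 4.3.3. Benjamini-Hochberg adjustment covered every gene tested, at a threshold of 0.05. Fold changes are KO over WT, and SE is the size of the log2 value over the root of F. The script was tested on simulated data. Alternatives used DESeq2 1.42.0, limma 3.58.1, other scalings, no filter, unstranded counts, a replicate block and each library left out. Nothing states that replicates shared a litter or batch. The p-values set the difference between the groups against the spread between these libraries. A batch common to a whole group could not be told apart from KO.

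Positions, exon lengths and transcripts came from GENCODE M21 on GRCm38, the assembly that mm10 denotes, and promoters from RefSeq on GRCm38.p6, which held 8 of the 10 enzymes. Transcripts were compared with blastn 2.17.0, for alignments of at least 300 bases. The enzymes, gene lists and naming rule were chosen with earlier results of these data known. The rule named the 10 enzymes, Odc1, Sat1, Ahcy, Mettl16, up to 4 called genes of each list, tested genes within 1 Mb of Adi1, the 3 genes closest to Adi1 with a mean of at least 1 CPM, Rn45s and the tissue markers; 1 gene it named is not reported here. Particl, Trappc12's neighbours below the threshold and other list members that did not pass were named after their values were seen.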

Additional observations from a re-analysis of the deposited data

How the results depend on the processing

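Over the 13 alternatives the log2 fold change was 1.50 to 1.60 for Adi1 and -0.50 to -0.40 for Mat2a, past the threshold each time. These are refits of the counts that chose the set, so they are no independent support. The number of enzymes called was 2, and 3 under unstranded counts, under limma-voom with quality weights and without WT replicate 3, Mtap being the third each time; it ranged from 2 to 3 with 1 library left out. Srm changed sign in 3 settings and Mat2b in 2, with values of -0.05 to 0.12. Over all genes, 2585 were called, 4092 with limma-voom and 1073 with the replicate block, and 1041 to 3719 with 1 library left out. Of called genes, 38.6% were higher in KO, against 23.5% with the replicate block. Of the 44 listed pathway genes, 6 were called, 11 with DESeq2, 10 without the filter on low counts, 10 with unstranded counts, 15 with limma-voom, 1 with the replicate block, and 0 to 13 with 1 library left out. Same-numbered KO and WT libraries did not deviate together (r of -0.184, -0.140 and -0.0997 over all tested genes), and no KO library correlated best with its own number. With deviations taken from means of 3 libraries, these r do not settle whether libraries were paired, which the labels do not say. Depth was lowest in WT replicate 3, with 6015125 reads outside Rn45s, of which Mri1 had 68.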

Other observations

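Reads on the strand opposite the enzymes were few. Over Adi1 they numbered 10, 8 and 5 in KO replicates 1 to 3 and 4, 2 and 0 in WT replicates 1 to 3, at most 0.479% of the reads on the gene in any library. Mat2a had the most, with 139, 166 and 172 opposite-strand reads in KO and 137, 156 and 29 in WT (means of 3.98 CPM in KO and 4.43 CPM in WT, with overlapping ranges). Mri1 had at most 5 in any library. Particl lies on that strand.

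A stretch of 519 bases of the Adi1 transcript, from 1133 to 1651 of 1652, lies after the stop codon and resembles parts of transcripts of 9 other genes at 83.9% to 90.2% identity. Of the 4 of these that were tested, edgeR called 0 higher in KO and 1 lower, beside 6.43% and 10.2% of all tested genes. The called gene was Apex2, a nuclease of DNA repair (log2 -0.51, SE 0.15, adjusted p = 0.0416 in edgeR's quasi-likelihood test). Apex2 and Alkbh8 match in the opposite orientation, Eaf2 and 4632415L05Rik in the same, and the counts are of 1 strand. The part of shared sequence in these counts was not tested. Eaf2, Alkbh8 and 4632415L05Rik were at -0.27, 0.02 and 0.17. These genes were chosen by their sequence after the Adi1 value was known.

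In promoter windows from 250 bases before to 50 after the start, the hexamer CACGTG (its own reverse complement), the site known for MYC among other factors, was present in 2 of the 9 windows listed for 8 of the enzymes, and in 7.15% of 32851 promoters. These were the window of Enoph1 and 1 of the pair listed for Sms. Neither of these genes passed the threshold. Adi1 and Srm have no entry there.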
